A study of Mus musculus with 32 samples.

Results

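The nuclear pore and nuclear transport genes were compared between the dendrites and the soma of the same single neurons. Members were chosen by symbol from a table of 44081 genes, as those beginning with Nup, Xpo, Ipo, Kpna, Kpnb, Tnpo, Nxf or Nxt followed by a number, with pseudogenes left out, which gave 48 genes. By role, 19 of them encode pore proteins of a known subcomplex, 22 transport receptors of the importin and exportin families and 6 mRNA export factors, while Nup62cl was given no class. The neurons were primary hippocampal neurons from C57BL/6 mice at embryonic day 18, kept in culture for 15 days, and no neuron was treated or genetically altered according to the labels. A pipette cut the dendrites from the cell body of each of 16 neurons, and both parts were aspirated into separate tubes, which gave 16 dendrite and 16 soma libraries of amplified polyadenylated RNA. Neurons 1 to 4 had 3 rounds of amplification and the other 12 had 2 rounds.

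The nuclear pore complex is a ring-shaped channel through the nuclear envelope, built from nucleoporins that form an outer and an inner ring, a membrane ring, a central channel of phenylalanine-glycine repeats, a cytoplasmic face and a nuclear basket. Importins carry proteins with nuclear localization signals inward, exportins carry cargo outward, and the small GTPase Ran sets the direction of both. Messenger RNA leaves mainly through the NXF1 and NXT1 heterodimer. In neurons, importins are also known as carriers of signals from distant processes back to the nucleus.

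Reads on 3′UTRs numbered 646521 to 6954420 in the dendrites and 925525 to 21169974 in the somas. Values are given as normalized reads, the counts divided by the size factor of the library, and each is relative to the other RNAs of its library, so that a lower value cannot be told apart from a larger share of other RNAs. Summed normalized reads of 5 neuronal markers were 6231 to 19572 in the dendrites and 8033 to 21654 in the somas, above 0 in all 32 libraries. The 3 inhibitory markers Gad1, Gad2 and Slc32a1 summed to medians of 8666 in the dendrites and 24990 in the somas, and the 4 pyramidal markers to 500 and 285. Astrocyte markers had medians of 96.0 in the dendrites and 37.1 in the somas, with a range of 0 to 1171 and 0 to 529. Gfap and Aldh1l1 had a median of 0 in both, and Aqp4 and Gja1 in the somas only. Microglia markers had medians of 2.33 in the dendrites and 0.466 in the somas, with highest values of 1229 and 34.5. Oligodendrocyte markers had medians of 15.9 and 4.42, and endothelial markers 3.86 and 0.530. Mitochondrially encoded genes took 2.39% to 35.8% of the dendrite reads and 0.277% to 8.12% of the soma reads. The part of these differences in the results below was not tested, apart from the fits named beside them. Libraries from neuron 5 stood apart, with more genes in the dendrites than in the soma, as did the dendrites of neurons 15 and 16, which held the fewest genes.

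Fewer pore and transport genes were detected in dendrites than in somas, and the same held for all genes. At 10 or more reads, dendrites held 5827 ± 2064 of all genes and somas 9206 ± 1644 (SD, n = 16 each). With at least 10 reads as detection, dendrites held 16.9 ± 6.99 of the 48 genes (SD, n = 16) and somas 32.9 ± 7.49 (SD, n = 16). The lowest dendrite was that of neuron 15 with 1 gene, followed by neuron 16 with 6, and the highest were neurons 2 and 5 with 25 each. Somas ranged from 19 genes in neuron 12 to 42 in neurons 4 and 10. The soma held more of the genes in 14 neurons, the numbers were equal in neuron 2, and neuron 5 had 25 in its dendrites and 20 in its soma. With equal read numbers in both parts of a neuron, the soma mean was 29.9 ± 6.59 (SD, n = 16) and the dendrite mean stayed at 16.9.

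**Figure D1:**
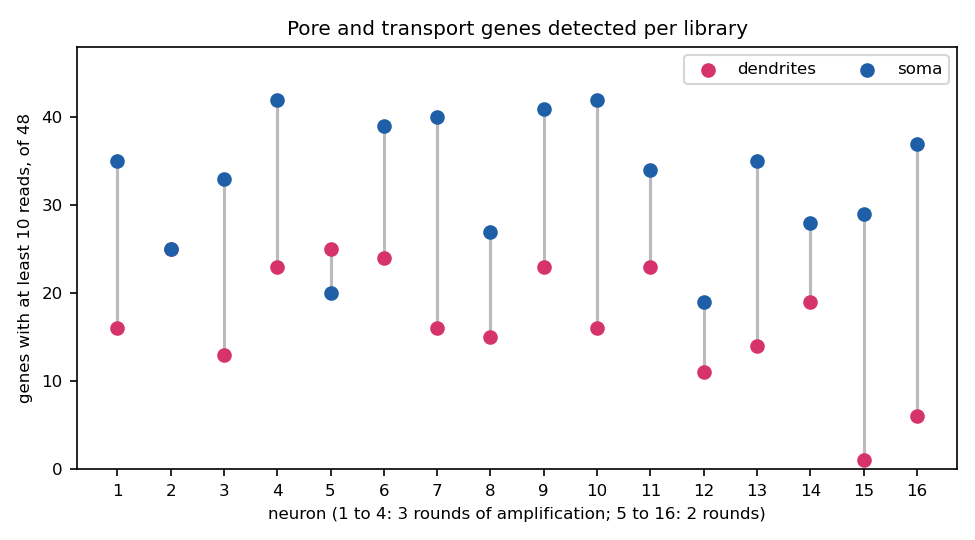
Number of the 48 pore and transport genes with at least 10 reads (y axis) in the dendrites (pink) and the soma (blue) of each neuron (x axis), joined by a grey line. The soma point lies above the dendrite point in 14 neurons, the points coincide at 25 in neuron 2, and the dendrites lie above the soma in neuron 5.

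The gap was found in all 3 groups of roles. Of the 20 genes with nucleoporin symbols, dendrites held 4.69 ± 2.63 and somas 12.0 ± 4.56 (SD, n = 16 each). Of the 22 transport receptors, dendrites held 10.6 ± 4.73 and somas 18.3 ± 2.91. Of the 6 mRNA export genes, dendrites held 1.56 ± 1.03 and somas 2.56 ± 0.814. Among the members detected in a soma, 44.1% ± 20.1 (SD, n = 16 neurons) were also detected in the dendrites of the same neuron, beside 47.4% ± 14.7 for all genes. The share of the members was the lower one in 9 neurons, so it lay on neither side of the share of all genes throughout.

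Across libraries, the summed counts of the 48 genes ranged from 34.0 to 2251 CPM in dendrites, with a median of 1353, and from 1381 to 2256 in somas, with a median of 1928. The highest levels of both groups were close to each other, and the dendrites extended much lower. Kpna7, an importin alpha of oocytes and early embryos, and Nxf7 had 0 reads on 3′UTRs in all 32 libraries, although exon counts held reads of Kpna7 in 6 dendrites and 2 somas and of Nxf7 in 1 dendrite. Nxf2 and Nxf3, relatives of Nxf1, had 3′UTR reads in 4 neurons each.

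**Figure D2:**
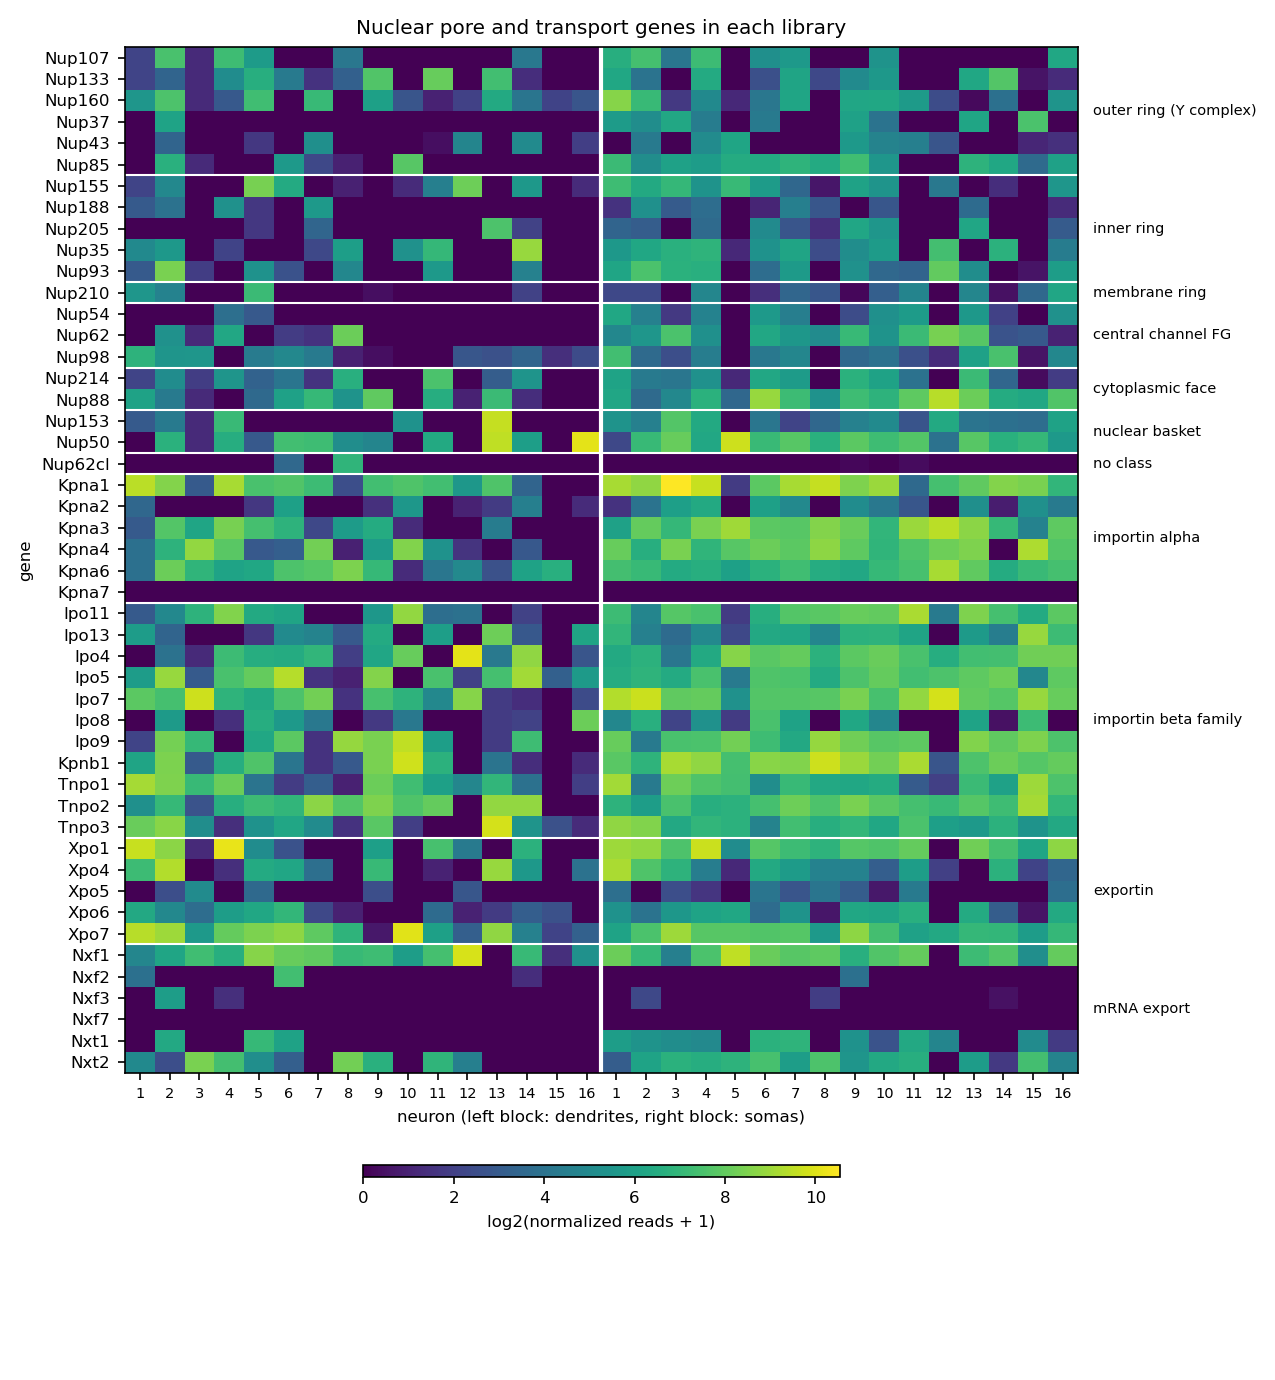
Normalized reads on a log2 scale with 1 added (colour) of the 48 genes (rows, ordered by role) in the dendrites (left block) and somas (right block) of neurons 1 to 16. The somas are more evenly filled, and the dendrites of neurons 15 and 16 are mostly at or near 0.

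Between compartments, 3 of the 36 members with enough reads to test were higher in somas and 0 were higher in dendrites (edgeR quasi-likelihood test with neuron as a block, adjusted p at most 0.05 over 10880 genes). A call is that of this test on 3′UTR counts unless another is named. Over all genes tested, 5.71% were called higher in somas and 0.827% higher in dendrites. The 3 genes were Nup62, a central channel nucleoporin, Nup85, a scaffold protein of the outer ring, and Kpna3, an importin alpha that binds nuclear localization signals. At an unadjusted p under 0.05, 9 members were higher in somas and 0 in dendrites, beside 26.7% and 3.55% of all genes. The fitted log2 fold change of dendrites over soma was below 0 for all 36 members, as it was for 78.8% of all genes, and its median was -1.95 for the members and -1.49 for all genes. Relative to that median of all genes, 11 of the 36 members lay above it. With the dendrite libraries rescaled so that the median gene lay near 0, 26 of the 36 members stayed below 0, the median of the members was -0.57, and 0 were called in either direction, beside 0.846% of all genes higher in somas and 5.04% higher in dendrites. With spike-in RNA as the scale, which could be done on exon counts in neurons 3 to 16, the median was -4.69 for 41 members and -4.15 for all genes, and 29 members were called beside 64.4% of all genes. DESeq2 with the same pairing called 22 of the 36 members higher in somas, where its share of all genes was 46.2%, and 0 higher in dendrites, where the share was 4.26%. RLE scaling in edgeR gave 5 members beside 9.26% of all genes, and the fit without a filter on low counts gave 0 beside 0.46%.

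**Figure D3:**
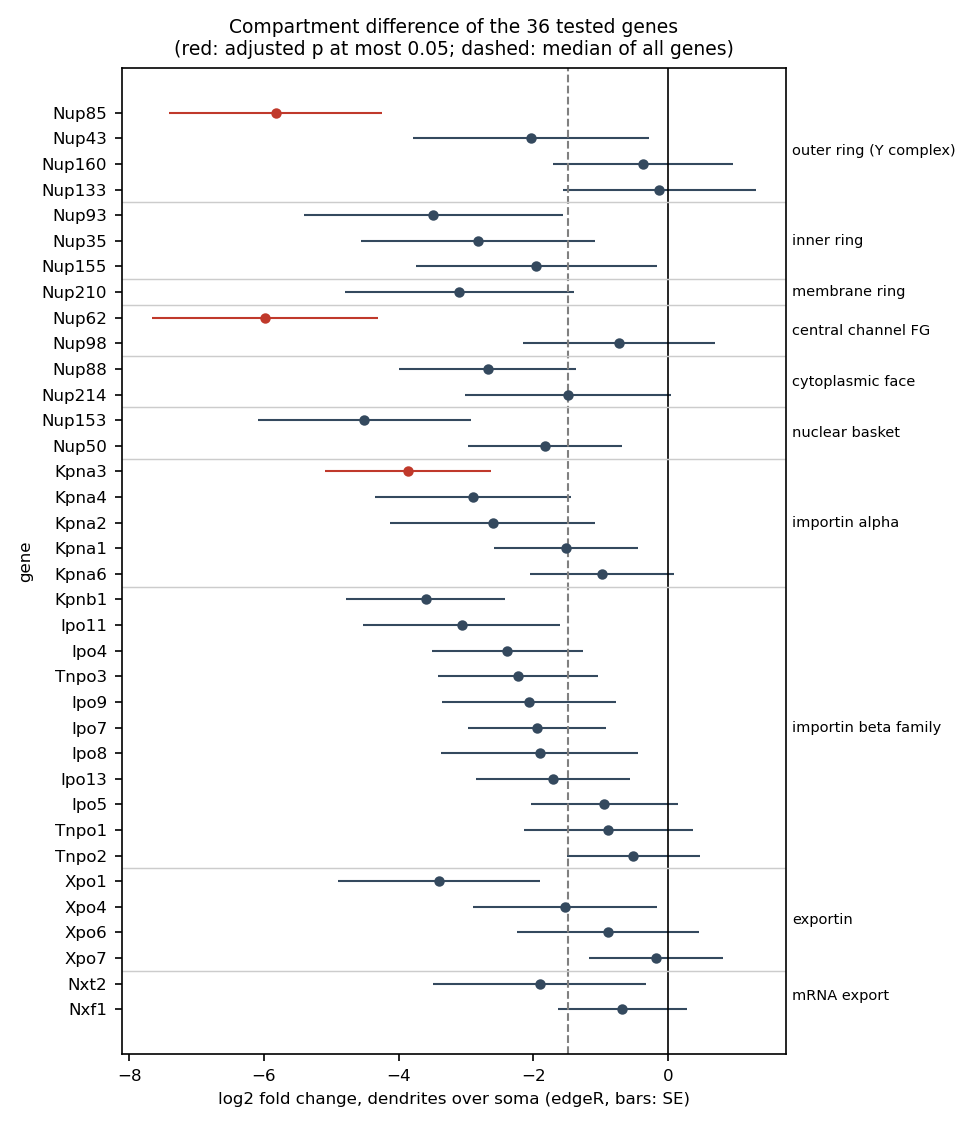
Fitted log2 fold change of dendrites over soma (x axis, edgeR, bars are the standard error) of the 36 tested genes (y axis), grouped by role. All points lie below 0, the 3 genes called higher in somas are red, and the dashed line is the median of all genes at -1.49.

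Among the outer ring genes, 1 of the 4 tested was called. Nup85 had normalized reads of 0 at the lowest, 0 at the median and 221 at the highest in dendrites, and 0, 71.3 and 155 in somas. It was at 0 in most dendrites and above 0 in 14 somas, and the ranges overlapped, with reads of 50.9 to 221 in the dendrites of neurons 2, 6 and 10 and none in the somas of neurons 11 and 12. Its log2 fold change was -5.83 (SE 1.58, edgeR adjusted p = 0.0238), and the soma was higher in 12 of the 14 neurons with reads. Nup85 lies at chr11:115564434-115583985 on the plus strand (GRCm38, GENCODE M21). By contrast, Nup133 and Nup160, which sit in the same Y-shaped complex, had log2 fold changes of -0.13 (SE 1.43) and -0.37 (SE 1.34) and were not called. Nup133 ranged from 0 to 271 in dendrites with a median of 6.00, and from 0 to 211 in somas with a median of 10.2, so its groups overlapped throughout. It was higher in the dendrites of 7 neurons and in the soma of 8. Whether Nup85 differed from Nup133 in its compartment effect was not tested. Nup43 was tested and not called at -2.04 (SE 1.75), and Nup107 and Nup37 had too few libraries with reads.

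For the central channel, Nup62 ranged from 0 to 286 in dendrites with a median of 0, and from 0 to 327 in somas with a median of 43.8. Reads were present in 6 dendrites and 15 somas, and the dendrites of neuron 8 exceeded most somas. Its log2 fold change was -5.99 (SE 1.68, edgeR adjusted p = 0.0279), with the soma higher in 13 of 15 neurons. Nup62 lies at chr7:44816088-44830812 on the plus strand. Nup98, a mobile nucleoporin that binds export factors, ranged from 0 to 112 in dendrites (median 5.62) and from 0 to 180 in somas (median 13.1), and at a log2 fold change of -0.73 (SE 1.42) it was not called. Nup54, a partner of Nup62 in the channel, was too sparse for the 3′UTR test, with reads in 2 dendrites and 12 somas. On exon counts it was called higher in somas, with a log2 fold change of -4.98 (SE 1.54, edgeR adjusted p = 0.0427), beside 2.62% of all genes on exons. Nup54 was chosen for mention with its values known.

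The inner ring, membrane ring, cytoplasmic face and basket gave 8 tested genes and 0 calls by edgeR, with 2 at an unadjusted p under 0.05 (26.7% of all genes) and 6 called higher in somas by DESeq2 (46.2% of all genes). Nup153, a basket protein that binds importins and chromatin, was at 0 in most dendrites, with a median of 0 and a highest value of 786 in neuron 13, while somas ranged from 0 to 212 with a median of 19.8. Its log2 fold change was -4.51 (SE 1.58, edgeR adjusted p = 0.0668), with the soma higher in 12 of 15 neurons. On exon counts the log2 fold change of Nup153 was -1.36 (edgeR adjusted p = 0.538). Nup50, the basket partner of importin alpha, had medians of 47.0 in dendrites and 137 in somas and its highest values in the dendrites of neuron 16 (1098) and the soma of neuron 5 (856). The ranges of both genes overlapped between the compartments. Nup50 had a log2 fold change of -1.83 (SE 1.15). Nup88, on the cytoplasmic face, had medians of 15.2 and 109 and was higher in the soma of 12 of 16 neurons, with a log2 fold change of -2.68 (SE 1.31, edgeR adjusted p = 0.159). Its partner Nup214 had medians of 5.61 and 17.8 and a log2 fold change of -1.49 (SE 1.53), the same as the median of all genes to 2 decimals. The inner ring scaffold genes Nup155 and Nup35 had log2 fold changes of -1.96 (SE 1.79) and -2.82 (SE 1.74). Nup210, a membrane-spanning nucleoporin, had reads in 5 dendrites and 13 somas and a log2 fold change of -3.10 (SE 1.70).

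**Figure D4:**
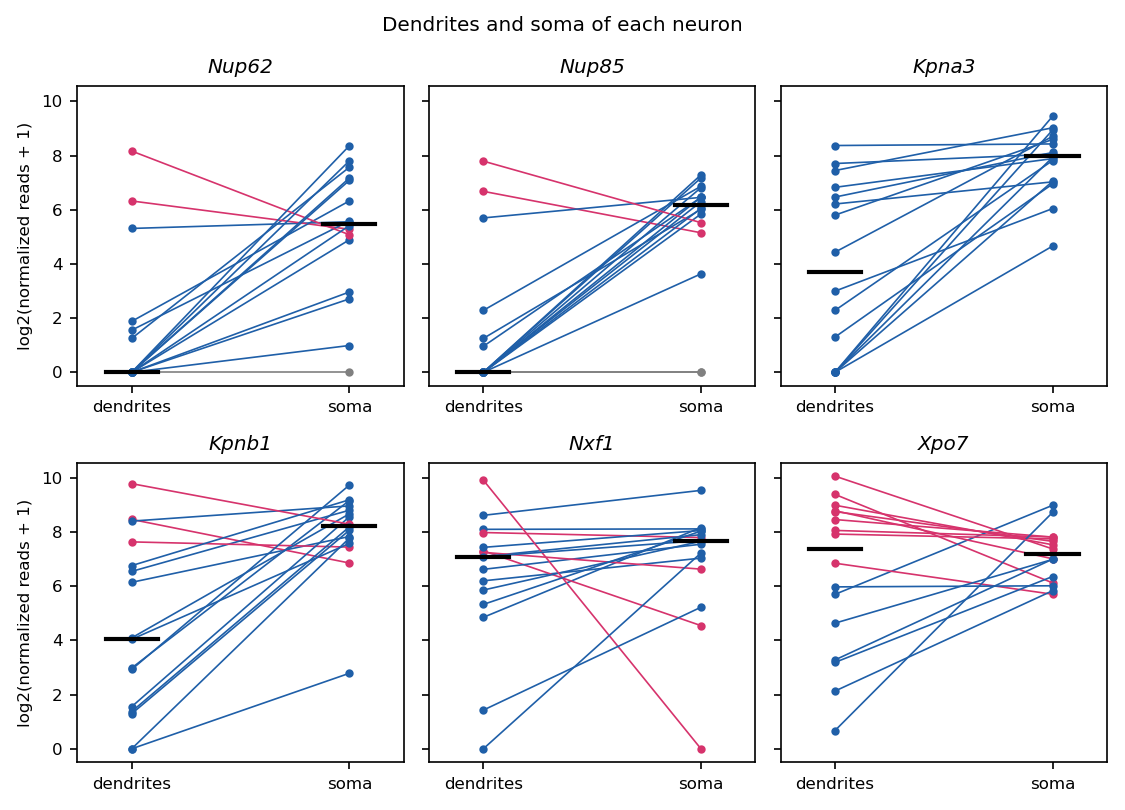
Normalized reads on a log2 scale with 1 added (y axis) in the dendrites and soma of each of the 16 neurons, joined by lines, for 6 genes. Blue lines mark neurons with the soma higher, pink lines neurons with the dendrites higher and grey lines equal values, and black bars are medians. All 16 lines of Kpna3 are blue, while 9 of the lines of Xpo7 are pink.

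Of the importin alpha genes, 1 of the 5 tested was called, and its direction was the most uniform of the members. Kpna3 ranged from 0 to 330 in dendrites with a median of 13.8, and from 24.3 to 699 in somas with a median of 254. The soma was higher in 16 of 16 neurons, although the ranges over neurons overlapped. Its log2 fold change was -3.86 (SE 1.23, edgeR adjusted p = 0.0467), and the gene lies at chr14:61365211-61439874 on the minus strand. Kpna1 ranged from 0 to 704 in dendrites (median 163) and from 2.61 to 1483 in somas (median 372). It had a log2 fold change of -1.52 (SE 1.07) and was not called by edgeR. Kpna6 ranged from 0 to 355 in dendrites (median 72.3) and from 62.5 to 566 in somas (median 133), with the soma higher in 9 of 16 neurons and a log2 fold change of -0.98 (SE 1.06). Kpna4 and Kpna2 were not called by edgeR, at -2.90 (SE 1.45) and -2.61 (SE 1.52). DESeq2 called 4 of the 5 importin alphas higher in somas, all but Kpna6, beside 46.2% of all genes.

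The importin beta family had 11 tested genes and 0 calls by edgeR, with 3 at an unadjusted p under 0.05, beside 26.7% of all genes, and 8 called higher in somas by DESeq2, beside 46.2%. Kpnb1, importin beta 1, which pairs with the importin alphas and docks at the pore, ranged from 0 to 882 in dendrites with a median of 15.8, and from 5.90 to 849 in somas with a median of 301. The soma was higher in 13 of 16 neurons, and the log2 fold change was -3.60 (SE 1.18, edgeR adjusted p = 0.0522), just outside the threshold. Ipo7, a carrier of ribosomal proteins and histones, had medians of 114 and 262, with the soma higher in 13 neurons and a log2 fold change of -1.95 (SE 1.03). Ipo5 and Tnpo1, which carry ribosomal proteins and RNA-binding proteins, were found in 15 dendrites and all 16 somas. Ipo5 had medians of 114 and 183 and a log2 fold change of -0.95 (SE 1.09), and Tnpo1 had medians of 44.8 and 112 and a log2 fold change of -0.89 (SE 1.25). Each was higher in the soma of 9 of the 16 neurons, so the direction varied from neuron to neuron. The highest fold change of the family was that of Tnpo2 at -0.52 (SE 0.990), which was higher in the dendrites of 9 neurons.

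Exportins gave 4 tested genes and 0 calls by edgeR, with 1 at an unadjusted p under 0.05 and 1 called by DESeq2, where the shares of all genes were 26.7% and 46.2%. Xpo1, the main carrier of proteins with nuclear export signals, ranged from 0 to 1171 in dendrites (median 12.3) and from 0 to 816 in somas (median 204). The soma was higher in 13 of 16 neurons, and the highest value of each compartment came from neuron 4. The log2 fold change was -3.40 (SE 1.50, edgeR adjusted p = 0.124). Xpo7, a broad exportin expressed in many tissues, was the only member with reads in all 16 dendrites. It ranged from 0.596 to 1069 in dendrites with a median of 178, and from 51.1 to 506 in somas with a median of 147. Dendrites were higher in 9 neurons and somas in 7, and the log2 fold change was -0.18 (SE 0.995), within its error of 0. Xpo7 lies at chr14:70654246-70766628 on the minus strand, and its 3′UTR annotation shares bases on that strand with Npm2, so reads of the pair may be mixed.

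Beside Xpo7, the members with reads in at least 15 of the 16 dendrites were Ipo5, Ipo7, Kpna6, Nxf1 and Tnpo1. Of all genes tested, 17.1% met this definition, beside 6 of the 36 members. Nucleoporins did not appear among the 6. With at least 10 reads asked in the same number of dendrites, 0 members remained, and on exon counts there were 3.

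The share of a neuron's normalized reads that lay in its dendrites was also compared in neurons with at least 10 normalized reads for a gene. The mean share over neurons had a median of 0.311 over the 36 members and 0.335 over 10331 genes. Kpna3 had a share of 0.150 ± 0.174 (SD, n = 16), Nup85 0.144 ± 0.290 (SD, n = 14) and Nup62 0.176 ± 0.317 (SD, n = 12). At the other end, Nup133 had 0.481 ± 0.401 (SD, n = 12) and Xpo7 0.456 ± 0.323 (SD, n = 16). Single neurons often lay near an extreme: among 509 values of members, 43.8% were below 0.1 and 8.06% above 0.9, compared with 37.6% and 9.62% for all genes. Of the 12 neurons of Nup133, 4 lay below 0.1 and 2 above 0.9. Such spread was not particular to Nup133, as Nup210 had an SD of 0.465 (n = 9 neurons). The variance of the share had a median of 0.0993 over the members and 0.105 over all genes.

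Nxf1, the receptor that carries bulk mRNA through the pore, differed most between the ways of counting. Its 3′UTR counts ranged from 0 to 950 reads in dendrites (median 93.5) and from 0 to 1190 in somas (median 509.5 reads), with at least 10 reads in 13 dendrites and 15 somas. On the normalized scale the medians were 136 and 203, and the log2 fold change was -0.68 (SE 0.958, edgeR adjusted p = 0.625). Exon counts gave another picture, with 0 to 56 reads in dendrites (median 0) and 0 to 796 in somas (median 112). Only 1 dendrite had 10 or more exon reads, beside 14 somas, and the log2 fold change on exons was -6.41 (SE 1.72, edgeR adjusted p = 0.0193). The value on exons minus that on 3′UTRs was -5.73 on the log2 scale for Nxf1, a difference that was not tested, and among the 34 members with both fits the median absolute difference was 0.898.

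The reads on single 3′ ends of Nxf1 followed the same division. The deposited features number 5 ends for the gene, each based on the last 500 nt of a 3′ end, with ends closer than 500 nt joined by the study. Nearly all reads were on ends 1 and 2. In dendrites, end 1 had 2686 reads in all and end 2 had 65, and in somas end 1 had 4980 and end 2 had 2754. End 2 had reads in 4 dendrites and 15 somas, and end 1 in 15 of each. Exon counts of Nxf1 equalled the reads of end 2 in 15 of 16 dendrites, most of them at 0 in both, and in 8 of 16 somas. Of the 12 dendrites with no exon read, 11 had reads on end 1, so those reads were not part of the exon counts. Nxf1 lies at chr19:8757073-8770922 on the plus strand. GENCODE M21 holds a transcript, Nxf1-209, in which the 3′UTR begins with the segment chr19:8765273-8766833, and 1524 of these 1561 bases lie in intron 10 of the coding transcript Nxf1-201. The deposited ends carry no coordinates, so which of them falls there was not determined.

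Shares of the 3′ ends were tested in 16 members, those with 10 or more reads on their leading 2 ends in the dendrites and in the soma of 5 or more neurons. At an unadjusted p under 0.1, 2 of the 16 differed, beside 8.44% of all genes tested, and at p under 0.05 only Nxf1 did, beside 4.53%. For Nxf1, end 2 took 12.2% ± 29.6 of the reads of ends 1 and 2 in dendrites and 42.5% ± 28.4 in somas (SD, n = 12 neurons), a difference of -30.3 ± 31.4 percentage points. The share was lower in the dendrites of 10 of the 12 neurons (exact signed-rank test, two-sided, p = 0.00928, Benjamini-Hochberg adjusted p = 0.818). Neurons 4 and 5 had it higher in dendrites, at 96.3% against 69.1% and at 3.45% against 0.183%. For Kpna1, end 3 took 32.0% ± 41.0 of the reads of ends 2 and 3 in dendrites and 67.2% ± 29.3 in somas (SD, n = 8 neurons). It was lower in the dendrites of 5 neurons, higher in 2 and equal in 1 (exact signed-rank test, two-sided, p = 0.0781, adjusted p = 1). Neither gene passed the correction over 3508 genes, and the other 14 tested members had p-values of 0.125 or more. In 7 of these 14, at most 4 neurons differed between the compartments, so that the exact test could give no p below 0.125.

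**Figure D5:**
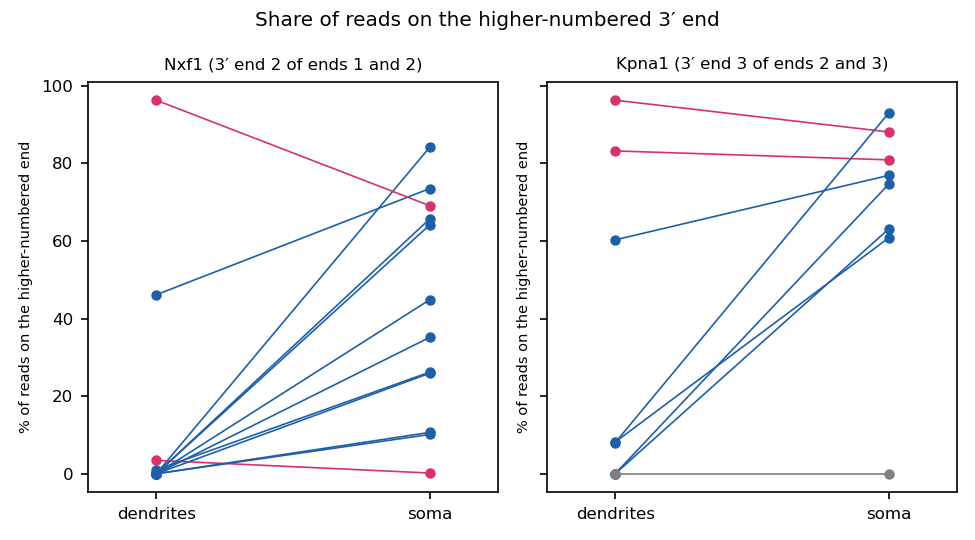
Percentage of reads on the higher-numbered of the 2 leading 3′ ends (y axis) in the dendrites and soma of each neuron, joined by lines, for Nxf1 (12 neurons) and Kpna1 (8 neurons). Blue lines mark a higher share in the soma, pink lines a higher share in the dendrites and grey an equal share. Most dendrites of Nxf1 lie at 0%, with neurons 2 and 4 at 46.2% and 96.3%.

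Other members also changed with the counted feature. Tnpo1 had at least 10 reads in 9 dendrites and 14 somas on 3′UTRs, and in 4 dendrites and 5 somas on exons. On exons it had a log2 fold change of 1.93, above 0, and was not called. Xpo4, an exportin chosen for mention with its values known, moved from -1.53 (SE 1.37) on 3′UTRs to 3.15 (SE 1.37) on exons, and neither value was called (edgeR adjusted p = 0.430 and 0.141). Its exon reads reached 10 in only 4 dendrites and 4 somas. Its 3′UTR annotation shares bases on the same strand with Gm49361, so 3′UTR reads of the pair may be mixed. The difference between both counts was within 1 on the log2 scale for 19 of the 34 members and over 2 for 5.

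For the remaining mRNA export genes, Nxt2, a cofactor that pairs with Nxf1, had medians of 15.2 in dendrites and 74.6 in somas, and was not called by edgeR at a log2 fold change of -1.90 (SE 1.58), while DESeq2 called it higher in somas at -2.09 (adjusted p = 0.0268). Nxt1, the main cofactor, was present in 3 dendrites and 12 somas, each with at least 10 reads. It did not enter the test, which asked for reads in at least 16 libraries, but entered and was called higher in somas when neuron 8 or neuron 14 was left out (edgeR adjusted p = 0.0418 and 0.0444). Neuron 13 also had 0 reads of Nxt1 in both parts, and without that neuron 39 members were tested and 0 were called.

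The calls were set beside the number of amplification rounds. In the 12 neurons of 2 rounds, where 2.88% of all genes were called higher in somas, the log2 fold changes were -5.56 for Kpna3, -7.50 for Nup62 and -6.22 for Nup85, and the edgeR adjusted p-values were 0.0412, 0.0370 and 0.0604. In the 4 neurons of 3 rounds they were -0.43, -2.06 and -4.60, and 0 members were called, beside 0.00758% of all genes. The difference in the compartment effect between the rounds was 4.92 (SE 2.41) for Kpna3, with p = 0.0465 and an adjusted p of 1 in the edgeR fit with an interaction term, and 0 of the 10880 genes passed, with 288 at an unadjusted p under 0.05. Without the pairing by neuron, 0 members were called beside 0.708% of all genes, and the median log2 fold change was -0.27 for the members and -0.22 for all genes. In that fit 22 of the 36 members lay below 0, beside 57.7% of all genes. Leaving out neuron 1, 13, 15 or 16 left 0 members called, leaving out neuron 12 left Nup85 alone, and leaving out neuron 2 gave 5. Over all genes, 3287 had an unadjusted p under 0.05 in either direction with every neuron in. That count was 2726, 2657, 2588 and 2397 without neuron 1, 13, 15 and 16 in turn. It was 2845 without neuron 12 and 3445 without neuron 2, so it moved in the same direction as the calls of the members. Kpnb1 was called without neuron 2, 5 or 10, Nup153 without neuron 2, and Nxt1 without neuron 8 or 14. On exon counts none of the 3 was called, with edgeR adjusted p-values of 0.0528 for Nup85, 0.0910 for Nup62 and 0.146 for Kpna3. Kpna3 also missed the threshold without the mitochondrially encoded genes and with a minimum of 10 reads in 16 libraries. In the fits with 1 neuron left out, Kpna3 was called in 6 of 16, Nup62 in 10 and Nup85 in 12, and the log2 fold changes stayed between -4.27 and -3.18, between -6.60 and -5.27 and between -6.34 and -5.22. The size depended on the pairing: without it the log2 fold changes were -1.92 for Kpna3, -1.22 for Nup62 and -1.59 for Nup85.

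Of 46 other nuclear transport genes, a list of Ran cycle, pore, receptor, mRNA export and lamina genes whose symbols the rule did not match, 43 were tested. Higher in somas were 9 of them, 0 were higher in dendrites and 34 were not called, with a median log2 fold change of -2.77. Over all genes tested, 5.71% were called higher in somas and the median was -1.49. The 9 calls are those of the main fit alone. Whether they hold in other fits or with 1 neuron left out was not tested. The called pore genes were Ndc1, Sec13, Nupl1, Nupl2 and Rae1, which had log2 fold changes of -6.21, -5.32, -5.75, -5.59 and -4.97. The called receptors were Cse1l, which returns importin alpha to the cytoplasm, at -5.02 (SE 1.25, edgeR adjusted p = 0.0172), and Phax, an adaptor for the export of small nuclear RNAs, at -5.89. The called mRNA export genes were Thoc3, a subunit of the THO complex, at -5.52, and Ddx39b, an RNA helicase that hands mRNA to the exporter, at -3.65. Ddx39b was higher in the soma of 16 of 16 neurons, as Kpna3 was. Median normalized reads in dendrites were 0 for Ndc1, Nupl2 and Phax and 0.472 for Sec13 and Rae1. They were higher for the other called genes of the list, and highest for Ddx39b. Rangap1, Ranbp1, Alyref and Eny2 had reads in at least 15 dendrites, and none of these 4 was called in either direction.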

How the data were processed

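According to the study, reads were trimmed of adapter and poly-A, aligned to mm10 with STAR (version 2.4.0 in the processing notes of the submitters), and uniquely mapped reads were counted by strand with VERSE. The deposited values were raw counts per gene on the union of its 3′UTRs (44081 genes), per 3′ end on its last 500 nt (74532 features) and, for each library, on exons and spike-ins, whose annotation was not given in the sources used here. The study joined 3′ ends closer than 500 nt into a shared feature. Because reads start near 3′ ends, values depend on the annotated ends. The counts have no molecular identifiers, so replicate spread, not counting error, gives the precision, and neurons are the replicates. The labels do not tie neurons to cultures or animals, so p-values cover the spread between these neurons. Reads per library ranged from 646521 to 21169974.

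Genes with at least 1 read in 16 libraries were fitted with edgeR 4.0.16 (R 4.3.3, TMM, robust quasi-likelihood test, neuron as a block), with Benjamini-Hochberg adjustment over 10880 genes. The standard error was the absolute log2 fold change divided by the square root of F. Normalized reads used DESeq2 1.42.0 size factors. The 3′ end shares used an exact signed-rank test (SciPy 1.17.1). Scripts were tested on simulated data. Both compartments of a number came from 1 cell, which gives the pairing. Across genes, their deviations correlated at 0.0851 ± 0.0741 (SD, n = 16), against -0.00533 ± 0.0515 (SD, n = 240) for other pairs. All 32 libraries matched their own exon files best, and 0 pairs were identical. Gene positions came from GENCODE M21.

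Members and lists were chosen with earlier results of these data known. Genes named with values were those called, per direction the 5 lowest p-values among genes that moved alike in at least 80% of neurons, the 2 of highest mean in each role, those in at least 15 dendrites, those with a 3′ end p under 0.1 and the 3 with the highest fold change. Others are named as examples or as chosen after their values were seen. Alternatives covered the test, scaling, filter, counted feature, block, rounds, depth and single neurons.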

Additional observations from a re-analysis of the deposited data

How the results depend on the processing

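No member was called higher in dendrites under any alternative. The number called higher in somas (3) was 22 with DESeq2, 5 with RLE scaling, 0 with dendrites rescaled to the median gene, 0 without a filter, 29 on exon counts scaled to spike-ins and 0 in the 4 neurons of 3 rounds, and 0 to 5 with 1 neuron left out. The median log2 fold change of the members was -0.57 with rescaled dendrites, -4.69 with spike-ins and -2.22 to -1.40 with 1 neuron left out. Members with reads in at least 15 dendrites (6) numbered 0 at 10 reads, 1 when all 16 dendrites were asked for and 3 on exons. Members detected per dendrite numbered 27.8 at 1 read. Members with different 3′ end shares (2) numbered 1 at p under 0.05, 0 after adjustment and 1 in the 12 neurons of 2 rounds, where 9 could be tested. With equal read numbers in both parts of a neuron, the count of members in at least 15 dendrites was 6 and the mean detected per soma 29.9. The cause of these changes was not tested.

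Without the replicate block for neuron, 0 members were called, the median log2 fold change was -0.27, and the sign turned for Ipo5 (0.26), Nup133 (0.75), Nup153 (0.56), Nup155 (0.47), Nup214 (0.024), Nup35 (0.080), Nup50 (0.034), Nxf1 (0.26), Nxt2 (0.38) and Xpo7 (0.66). The sign also turned on exon counts for Nup155 (0.33), Tnpo1 (1.93) and Xpo7 (0.26), and at a minimum of 10 reads in 16 libraries for Xpo7 (0.17). It turned in the neurons of 2 rounds for Nup133 (0.23), Nup155 (0.083) and Nup160 (0.0054), and in those of 3 rounds for Ipo5 (0.10), Kpna6 (0.12), Nup210 (1.33), Nup98 (0.76), Nxt2 (1.29), Tnpo1 (1.31) and Xpo7 (1.08). With rescaled dendrites it turned for Ipo5 (0.54), Kpna6 (0.51), Nup133 (1.30), Nup160 (1.09), Nup98 (0.73), Nxf1 (0.81), Tnpo1 (0.60) and Xpo7 (1.32). With 1 neuron left out, Nup133 ranged from -0.60 to 0.55, Nup160 from -0.71 to 0.11 and Xpo7 from -0.42 to 0.35. Over the 23 named genes and all alternatives, 499 of 615 fits kept their direction and their side of the threshold, and Kpna3, Nup62 and Nup85 turned in none.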
